A study of Rattus norvegicus with 9 samples.

Results

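Hippocampal RNA of 3 rats whose vagus nerve was stimulated through the skin of the ear after a stroke (transcutaneous auricular stimulation, taVNS) was compared with that of 3 rats with post-stroke cognitive impairment (PSCI) that were not stimulated. These 6 libraries are 6 of the 9 in the study, and were chosen by their group label alone. All rats were male, and both groups had middle cerebral artery occlusion (spelled MACO or MCAO in the labels), a surgical model of ischaemic stroke. Rats entered when their spontaneous alternation (a maze test of memory) and cognitive index were both lower than 20% of the control mean, and were then divided at random between the groups. The taVNS group was stimulated for 14 days, and the PSCI group had regular feeding for 2 weeks. The other 3 libraries are from routinely fed control rats, and enter here as levels and in the shared estimate of spread. No sham stimulation, strain, age, stroke side or hemisphere is named in the labels. Each library is labelled as its own replicate, the extraction text speaks of tissue from each animal (calling the rats mice), and no further account of the replicates is given, so p-values measure the spread between these libraries.

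In taVNS an electrode on the outer ear stimulates the auricular branch of the vagus nerve, whose fibres reach the nucleus of the solitary tract and, from there, noradrenergic and cholinergic cell groups that project to the hippocampus. Vagal signalling is also known for restraining inflammation through acetylcholine and the alpha7 nicotinic receptor, encoded by Chrna7. After a stroke, astrocytes and microglia divide, change shape and switch on or raise characteristic genes (Gfap and Vim in astrocytes, complement and Fc receptor genes in microglia), a reaction called gliosis. In RNA from whole tissue, fewer cells of a type and less RNA per cell cannot be told apart.

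The libraries held 13747389 to 15415694 counts, so the 3 counts that a count of 0 allows correspond to 0.191 to 0.22 CPM (counts scaled to a common library size with edgeR's TMM factors). Neuronal transcripts of the labelled tissue were abundant in every library, with Snap25, a synaptic vesicle fusion protein, at 1412, 1108 and 1526 CPM in PSCI and 1722, 1759 and 1633 CPM in taVNS. The first principal component held 48.2% of the variance and gave scores of 19.7, 74.9 and 52.8 to PSCI, -24.5, -19.5 and -7.41 to taVNS and -30.3, -29.6 and -36.2 to control libraries. PSCI replicate 2 (PSCI 2 below) and taVNS replicate 3 (taVNS 3) stood apart in the mean level of 25 genes of the meninges and fibroblasts, at 4.95 and 4.87 log2 CPM against 2.55 to 3.53 in the other 7 libraries. Red blood cell genes averaged 4.32, 2.73 and 3.45 log2 CPM in taVNS, 0.861, 0.843 and 1.95 in PSCI and 2.45 to 2.8 in control. The part of these tissue and blood transcripts in other results was not tested, and counts are given with and without PSCI 2 and taVNS 3 for lists with at least 3 falls or rises whose count moved by over 1.5 times.

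**Figure D1:**
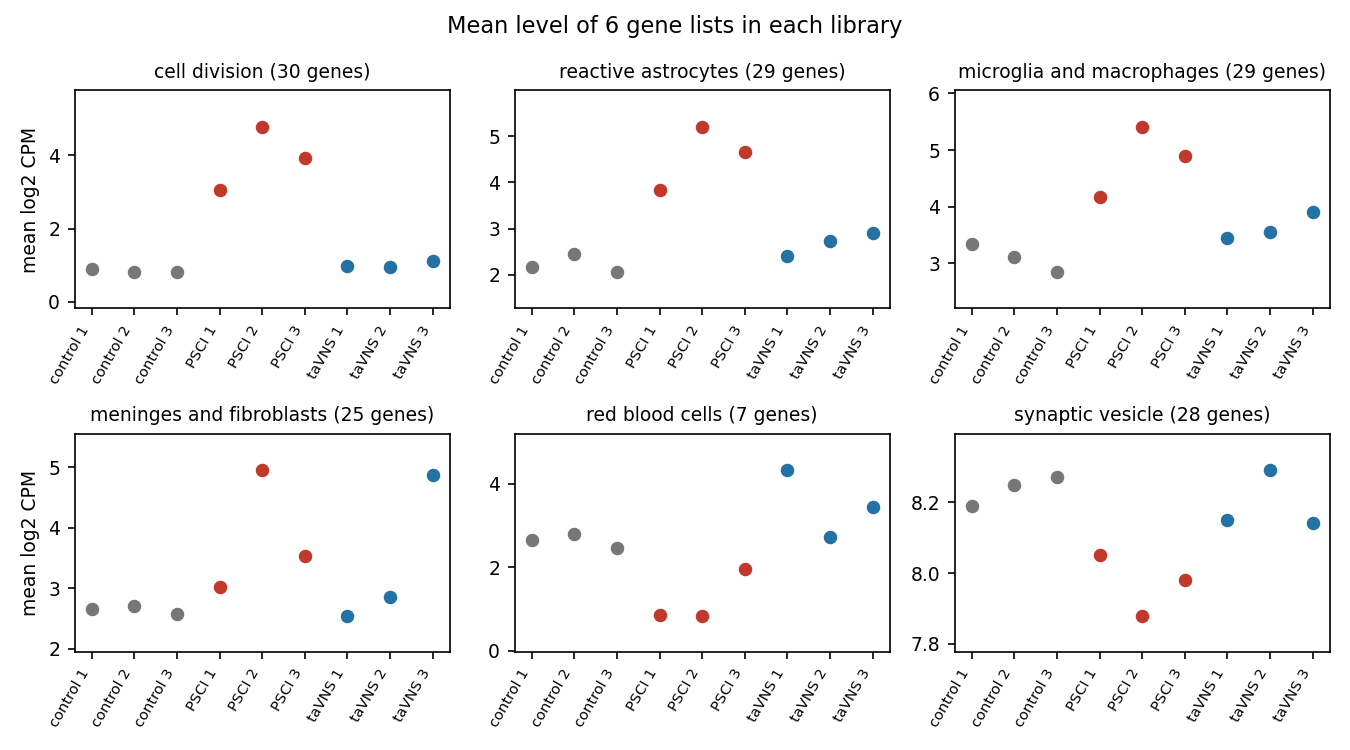
Mean log2 CPM of 6 gene lists (panels) in each of the 9 libraries (x axis). Each point is 1 library, grey for control, red for PSCI and blue for taVNS, and the y axes differ in range and do not start at 0. The 3 PSCI libraries lie above all others for cell division, reactive astrocytes and microglia, while PSCI 2 and taVNS 3 lead the meninges panel.

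In the hippocampus of stimulated rats, genes of dividing cells, reactive astrocytes and microglia were lower than in that of unstimulated rats. Few genes of neurons and synapses passed the test, as was so for all genes tested (5.75%). Of 14840 genes with enough counts to test, 854 (5.75%) differed at an adjusted p under 0.05 in edgeR's quasi-likelihood test, which is what "called" means below. In all, 729 genes (4.91%) were lower in taVNS and 125 (0.842%) were higher. Of the falls 529 were at least 2-fold, and of the rises 26. The median log2 fold change over all genes tested was -0.00151, with 50.3% of genes below 0. Fold changes are log2 of taVNS over PSCI with the standard error of the fit, so a negative value is a lower level after stimulation. The 3 taVNS values lay wholly above or below the 3 PSCI values for 853 of the called genes, and for 25.9% of all genes tested. The count moved with single libraries. It was 172 without taVNS 1, 254 without taVNS 2, 313 without taVNS 3, 375 without PSCI 3, 488 without control 2 and 1707 without PSCI 1. Without both PSCI 2 and taVNS 3 it was 361, and with the 6 libraries of the 2 groups alone it was 250. Of the 854 genes, 164 stayed called when each of the 9 libraries was left out in turn, 14 of them higher and 150 lower.

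**Figure D2:**
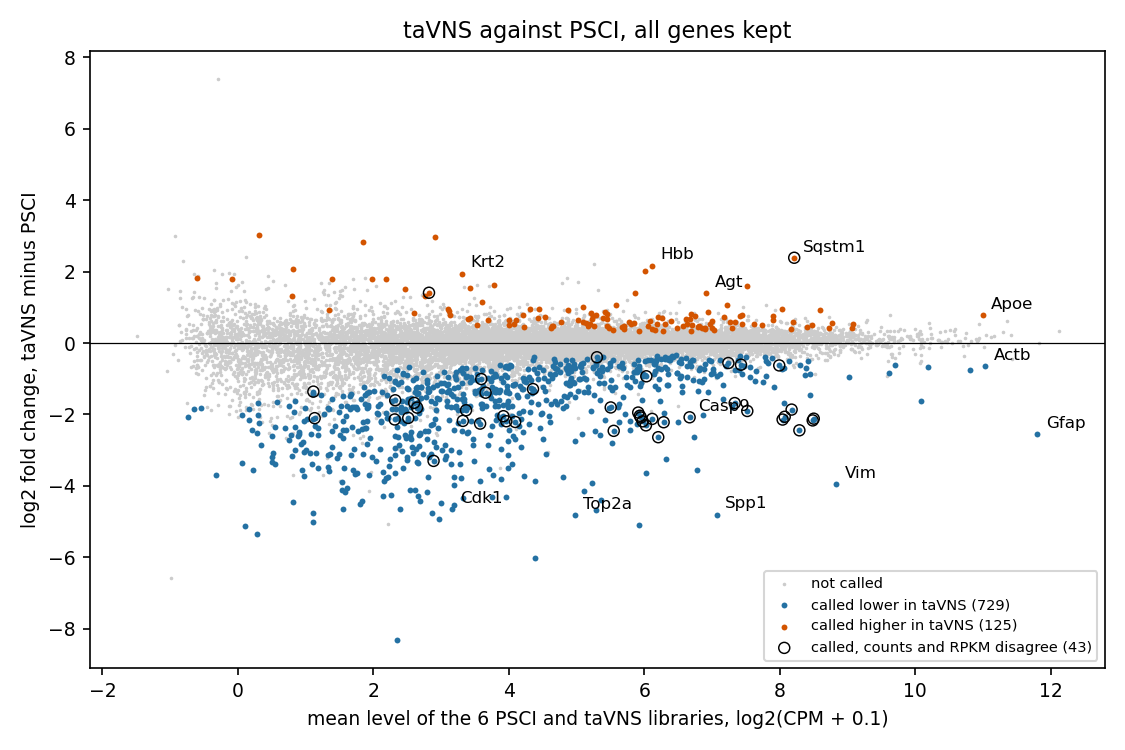
Each point is 1 of 14840 genes, with the mean level of the 6 libraries as log2(CPM + 0.1) on the x axis and the log2 fold change of taVNS over PSCI on the y axis. Blue marks the 729 genes called lower, orange the 125 called higher, and black rings the 43 called genes whose counts and RPKM disagree in PSCI.

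The deposited counts and the deposited RPKM (read counts scaled by gene length and library size) of a gene should differ by 1 factor in all libraries. For 63 of 12959 genes examined, that factor moved by more than 0.25 (log2) in the PSCI mean and not between control and taVNS, against 20 genes by the same measure in control and 21 in taVNS. At a limit of 0.5 the numbers were 19, 0 and 2. These genes hold many of the smallest p-values of the comparison, 15 of the 20 smallest, and 18 of 20 with a further rule on single PSCI libraries that was added after the values were seen. Casp9, an initiator of apoptosis, had 2507, 2481 and 2523 counts in PSCI against 553, 601 and 527 in taVNS, a log2 fold change of -2.08 in counts, but its RPKM of 37.4, 35.9 and 36.5 against 19.6, 19.9 and 18.3 gave -0.93. Gabarapl2, which attaches to the membranes of forming autophagosomes, fell by 2.12 in counts (adjusted p = 2.34e-05) and differed by 0.05 in RPKM (limma adjusted p = 0.857). Sqstm1, the autophagy cargo receptor p62, rose by 2.39 in counts and by 0.69 in RPKM. Counts of Sqstm1 were 1837, 1189 and 1304 in PSCI and 7192, 7248 and 7097 in taVNS.

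Both rules together mark 365 genes, of which 43 were called. The added rule by itself marked 346 of 14202 genes examined in PSCI, against 292 by the same measure in control and 254 in taVNS. Of these, 40, 21 and 20 were called, so a mark by the added rule is not particular to PSCI. The apoptosis regulator Bcl2 was in neither rule and was noticed after its values were seen. It had 85, 93 and 99 counts in PSCI against 10, 16 and 24 in taVNS, while its RPKM of 0.13, 0.72 and 0.23 in PSCI lay below the 1.79, 1.19 and 1.83 in taVNS, so its direction is not settled by these files. Of the 811 called genes in neither rule, 810 had the same sign in RPKM and 593 were also called by limma on log2(RPKM + 0.1). That test called 666 genes over all (4.49%), 84 higher (0.566%) and 582 lower (3.92%). The median gap between the fold changes from counts and from RPKM was 0.0564 for the 811 genes and 0.829 for the 24 called genes of the first rule.

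**Figure D3:**
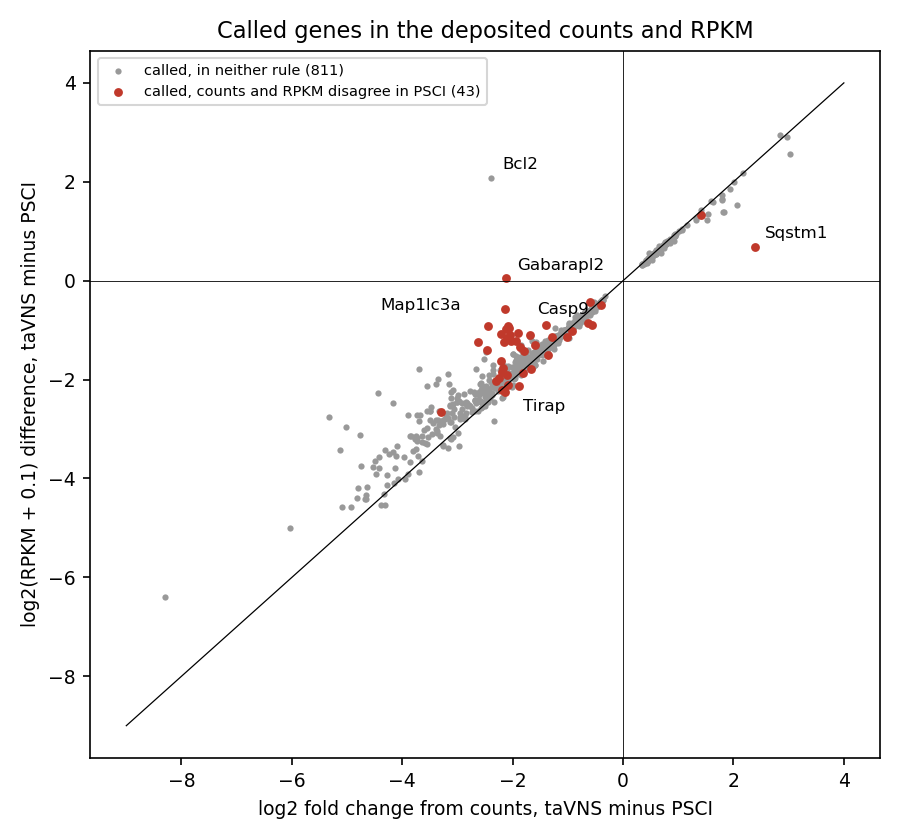
The 854 called genes by their log2 fold change from counts (x axis) and their difference in log2(RPKM + 0.1) (y axis), both taVNS minus PSCI, with the line of equality. Grey points are the 811 genes in neither rule and red points the 43 whose counts and RPKM disagree in PSCI. Gabarapl2 and Bcl2 lie far above the line and Sqstm1 below it.

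Genes of cell division were lower after stimulation almost without exception. Of 30 genes tested that act in mitosis, 29 fell and none rose, with a median log2 fold change of -3.15. The member that was not called was Anln, a scaffold of the cleavage furrow, with a log2 fold change of 0.14. The called share was 96.7%, beside the 4.91% of all genes that fell. All lists here were chosen with earlier results of these data known, so such shares are set side by side as description only. Top2a, which untangles DNA before chromosomes separate, was at 30.2, 104 and 46.9 CPM in PSCI and at 1.89, 1.89 and 2.6 CPM in taVNS, beside 1.79, 1.56 and 2.13 in control. Every PSCI value lay more than 10-fold above every taVNS value. It fell 28.3-fold (log2 fold change -4.83 ± 0.47, adjusted p = 0.00117), and its log2 fold change was -4.17 without PSCI 2.

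Cdk1, the kinase that drives entry into mitosis, stood at 7.84, 27.7 and 15.6 CPM in PSCI and 0.631, 0.559 and 0.82 CPM in taVNS (log2 fold change -4.65 ± 0.48, adjusted p = 0.00181). Cenpf, a kinetochore protein, was at 12.9, 33.3 and 20.2 CPM against 1.26, 1.75 and 1.57 CPM (log2 fold change -3.85 ± 0.36, adjusted p = 0.00097). Mki67, the marker of cycling cells known as Ki-67, was at 53.5, 151 and 76.1 CPM against 15.8, 14.3 and 21.4 CPM, with 14.6, 17.9 and 13.7 in control (log2 fold change -2.44 ± 0.35, adjusted p = 0.00718). In all of these genes PSCI 2 was the highest library and PSCI 1 the lowest of its group, and PSCI and taVNS did not overlap. The cyclin Ccnb2 (-4.12) and the spindle motor Kif11 (-4.54, or -3.9 without PSCI 2) fell as well. The count of 29 falls was 16 without taVNS 1, 19 without taVNS 2 and 23 without both PSCI 2 and taVNS 3. The median over the list stayed between -3.5 and -2.57 when 1 library at a time was left out.

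The start sites of 3 members are shown because promoters of mitotic genes are known for a short element, the cell cycle genes homology region (CHR), whose letters TTTGAA are in capitals on either strand. They are the 3 called members of smallest p with a match, as RefSeq gives them for the build GRCr8, from 250 bases before to 50 bases after the start, 5′ to 3′ in the direction of the gene. They lie at chr13:103760837-103761136 (minus strand), chr10:84473044-84473343 (minus strand) and chr20:19265043-19265342 (plus strand).
Cenpf: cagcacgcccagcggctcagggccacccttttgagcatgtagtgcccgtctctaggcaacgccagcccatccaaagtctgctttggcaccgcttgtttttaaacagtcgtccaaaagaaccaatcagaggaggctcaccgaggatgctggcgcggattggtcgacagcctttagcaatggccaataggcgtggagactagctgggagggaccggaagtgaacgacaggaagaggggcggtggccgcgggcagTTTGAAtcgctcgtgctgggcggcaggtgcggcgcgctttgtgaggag
Top2a: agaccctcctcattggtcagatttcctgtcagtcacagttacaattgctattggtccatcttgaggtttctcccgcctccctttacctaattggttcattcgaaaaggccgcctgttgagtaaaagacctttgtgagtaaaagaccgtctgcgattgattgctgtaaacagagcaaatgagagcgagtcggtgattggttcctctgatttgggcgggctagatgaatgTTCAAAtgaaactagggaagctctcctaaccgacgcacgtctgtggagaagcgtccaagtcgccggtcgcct
Cdk1: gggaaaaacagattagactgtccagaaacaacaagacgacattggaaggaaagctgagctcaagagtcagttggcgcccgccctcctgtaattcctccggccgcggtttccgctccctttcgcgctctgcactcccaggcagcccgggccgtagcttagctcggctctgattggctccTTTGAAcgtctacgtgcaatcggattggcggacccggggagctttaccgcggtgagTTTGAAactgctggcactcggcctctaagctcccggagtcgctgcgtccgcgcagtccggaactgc
Top2a holds the letters on the reverse strand, starting at -22 relative to the start (0 is the first base after the 250 upstream bases), and Cdk1 holds them in 2 places, at -72 and -16. TTTGAA was present in 19 of the 25 cell division promoters found in the table (76%) and in 1429 of 12016 promoters of all genes tested (11.9%). Among genes called lower it was in 133 of 573 (23.2%), among those outside the cell division list in 115 of 549 (20.9%), and among genes called higher in 10 of 108 (9.26%). The CCAAT box (CCAAT) was in 72% of cell division promoters and 37.4% of all, and the core of the cyclic AMP response element (TGACG) in 36% and 30.4%. Promoters of the DNA replication list held CCAAT in 17 of 24 (70.8%) and TTTGAA in 1 of 24 (4.17%). TTTGAA was in 3 of 26 promoters of reactive astrocyte genes (11.5%) and 5 of 17 of microglia and macrophage genes (29.4%). Such matches describe the letters of the window and do not show that a factor binds there.

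Genes of DNA replication were lower after stimulation as well, with a smaller median. Of 31 tested, 20 fell and none rose, with a median of -1.47, and all 31 had a negative fold change. Mcm5, a subunit of the helicase that opens DNA at origins, was at 12.1, 47.4 and 22.5 CPM in PSCI and 1.96, 1.75 and 2.12 CPM in taVNS (log2 fold change -3.81 ± 0.48, adjusted p = 0.0045), or -3.15 without PSCI 2. Gins1, which joins the same helicase, fell by 7.58-fold (adjusted p = 0.00763). The ribonucleotide reductase subunit Rrm2 was at 12.1, 59.9 and 31.9 CPM against 2.59, 2.59 and 2.66 CPM (log2 fold change -3.72 ± 0.51, adjusted p = 0.00569), or -3.07 without PSCI 2, and its call was lost with limma-voom. Pcna, the sliding clamp of DNA polymerase, is used by resting cells as well, and had 39.2, 77.05 and 57.4 CPM against 27.1, 24.5 and 27.8 CPM (log2 fold change -1.13 ± 0.21, adjusted p = 0.0176). That call was lost without taVNS 1, taVNS 2, taVNS 3 or PSCI 3, with adjusted p of up to 0.0784. The count of 20 falls was 5 without taVNS 1, 6 without taVNS 2, 10 without taVNS 3, 9 without PSCI 3, 12 without control 2 and 13 without both PSCI 2 and taVNS 3.

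**Figure D4:**
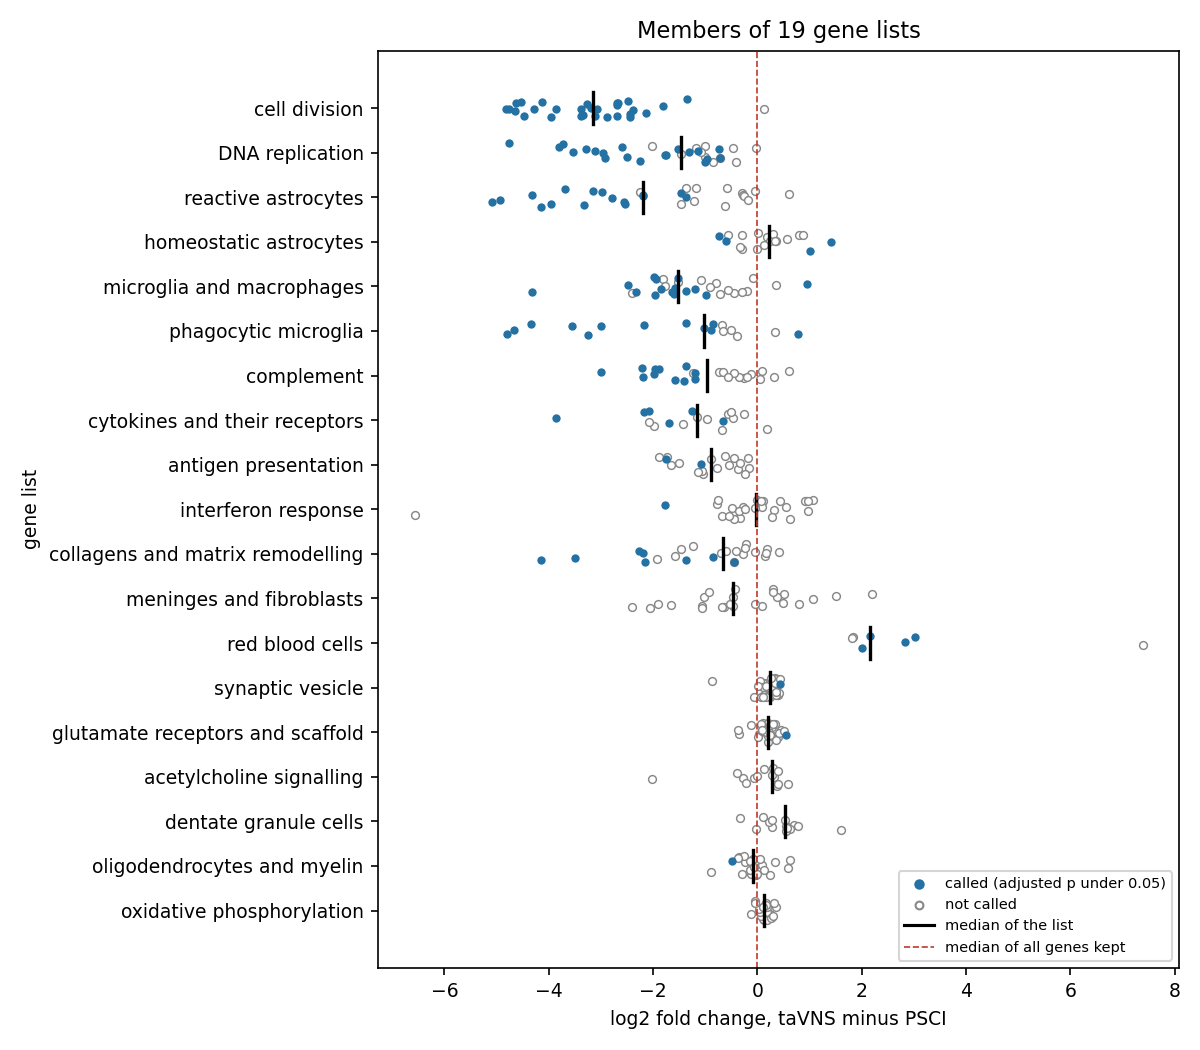
Log2 fold change of taVNS over PSCI (x axis) for the members of 19 gene lists (y axis). Filled blue points are called genes, open points are not, black bars are list medians, and the dashed line is the median of all genes tested. Cell division, DNA replication and reactive astrocytes lie to the left of the dashed line, red blood cells lie to the right, and the synaptic lists lie close to it.

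Markers of reactive astrocytes fell after stimulation. Of 29 genes tested, 16 fell and none rose, and the median log2 fold change was -2.2. Gfap, an intermediate filament of astrocytes whose rise is used as a marker of reactive ones, was at 4095, 7672 and 6553 CPM in PSCI and 854, 1380 and 896 CPM in taVNS, beside 1196, 1011 and 631 CPM in control. The lowest PSCI library was well above the highest taVNS library. The fall was 5.85-fold (log2 fold change -2.55 ± 0.32, adjusted p = 0.0045), and it stayed called in every alternative. Vim, another filament of reactive astrocytes, was at 488, 1290 and 801 CPM against 31.4, 41.4 and 94.3 CPM (log2 fold change -3.95 ± 0.48, adjusted p = 0.00397). The taVNS value was highest in taVNS 3, and the log2 fold change was -4.53 without it.

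S1pr3, a receptor for sphingosine-1-phosphate that reactive astrocytes express, was at 44.8, 66.7 and 61.2 CPM in PSCI and 7.85, 10.5 and 11.4 CPM in taVNS (log2 fold change -2.54 ± 0.20, adjusted p = 0.000374). Aspg, an asparaginase known from reactive astrocytes, was at 14.04, 29.9 and 16.3 CPM against 1.47, 2.38 and 2.19 CPM (log2 fold change -3.31 ± 0.35, adjusted p = 0.00199), with 0.414, 0.637 and 0.294 in control. Hspb1, a small heat shock protein, spread widely among PSCI libraries, at 25.4, 240.2 and 86.1 CPM, against 4.27, 3.15 and 2.87 CPM in taVNS. It fell by 34.1-fold (log2 fold change -5.09 ± 0.75, adjusted p = 0.00766), with a log2 fold change of -4.01 without PSCI 2. Socs3, which damps cytokine signalling through Stat3, was at 9.88, 59.2 and 19.6 CPM against 1.47, 1.4 and 1.57 CPM (log2 fold change -4.31 ± 0.62, adjusted p = 0.00714), or -3.3 without PSCI 2. Lcn2, an iron-binding protein secreted by reactive astrocytes, fell by 30.5-fold (adjusted p = 0.00572), with a log2 fold change of -4.18 without PSCI 2. The calls of Hspb1, Socs3 and Lcn2 were lost with limma-voom.

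C3, a complement protein often read as a sign of harmful astrocytes, did not share the direction of that list. It was at 25.6, 50.6 and 38.2 CPM in PSCI, 32.9, 78.5 and 62.8 CPM in taVNS and 10.01, 17.4 and 7.93 CPM in control (log2 fold change 0.61 ± 0.38, adjusted p = 0.398), and the taVNS and PSCI libraries overlapped. The list's count of 16 falls was 8 without taVNS 1 and 8 without taVNS 2, and 12 without both PSCI 2 and taVNS 3.

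Genes of resting astrocytes were mixed. Of 20 tested, 2 rose and 2 fell, and the median was 0.217. The rises were 1 without taVNS 1 or taVNS 2 and 6 without PSCI 1. The falls were 0 without taVNS 1, taVNS 3, PSCI 3 or both PSCI 2 and taVNS 3, and 1 without taVNS 2, PSCI 2 or any single control library. Agt, the angiotensin precursor made by astrocytes, was at 88.2, 63.98 and 46.1 CPM in PSCI and 173, 155 and 197 CPM in taVNS, beside 212, 199.5 and 202 in control. The groups were far apart and the rise was 2.65-fold (log2 fold change 1.40 ± 0.20, adjusted p = 0.00724). Gpc5, a proteoglycan on the astrocyte surface, rose from 27.3, 17.97 and 22.8 CPM to 48.8, 47.1 and 41.7 CPM (log2 fold change 1.01 ± 0.17, adjusted p = 0.0135), a call lost without taVNS 1 or taVNS 2 (adjusted p up to 0.0748). Aqp4, the water channel of astrocyte endfeet, was at 925, 1075 and 1007 CPM against 614, 738 and 619 CPM (log2 fold change -0.61 ± 0.12, adjusted p = 0.0237), and Glul, which makes glutamine from glutamate, at 1705, 2654 and 2373 CPM against 1398, 1212 and 1415 CPM (log2 fold change -0.74 ± 0.17, adjusted p = 0.0366). The call of Aqp4 was lost without taVNS 1, taVNS 3 or PSCI 3 (adjusted p up to 0.124) and that of Glul without each library except PSCI 1 (up to 0.125) and with limma on RPKM (adjusted p = 0.0593). The gap junction gene Gja1 (log2 fold change -0.32, adjusted p = 0.208) and the glutamate transporter Slc1a3 (-0.29, adjusted p = 0.255) were not called. Hes5, a Notch target that keeps neural progenitors undifferentiated, was at 3.34, 5.04 and 3.07 CPM against 10.5, 9.65 and 10.2 CPM (log2 fold change 1.41 ± 0.21, adjusted p = 0.00757). It is among the genes marked by the added rule, although its RPKM difference was 1.32.

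**Figure D5:**
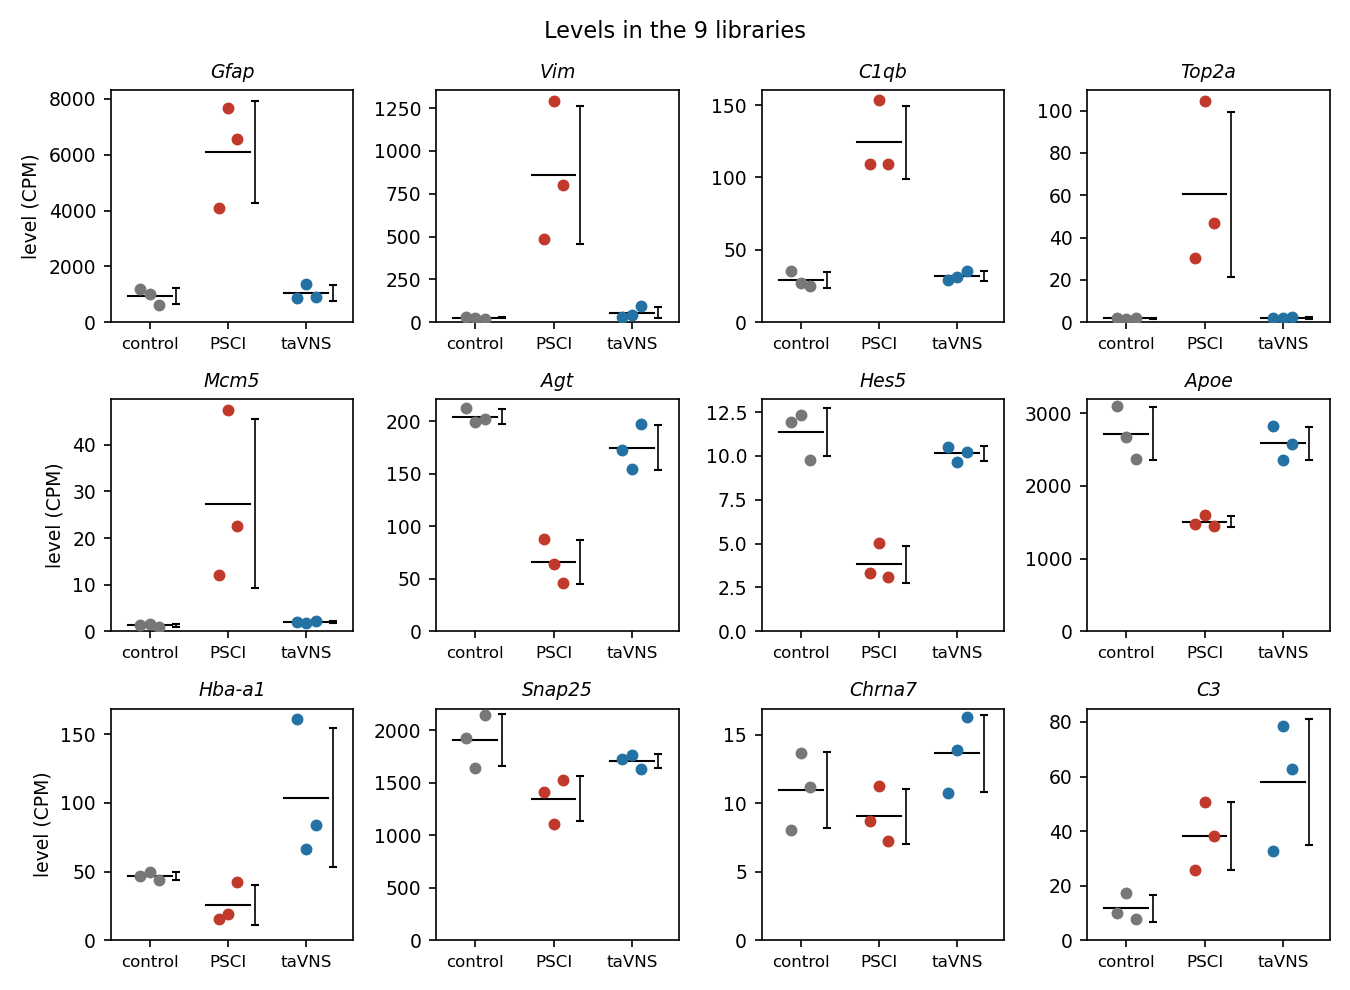
Levels in CPM (y axis, from 0) of 12 genes in control (grey), PSCI (red) and taVNS (blue) libraries. Points are single libraries, horizontal bars are group means and vertical bars are 1 SD on each side (n = 3). Gfap, Vim, C1qb, Top2a and Mcm5 are high in all 3 PSCI libraries, Agt, Hes5 and Apoe are low there, and Snap25 and Chrna7 differ by less.

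Many microglial genes were lower after stimulation, among them the C1q chains and the Fc receptor Fcgr2b, while the resting markers P2ry12 and Cx3cr1 did not pass the test and Tmem119 rose. Of 29 microglia and macrophage genes tested, 14 fell and 1 rose, with a median of -1.52. C1qb, a chain of the first complement component, was at 109.5, 154 and 109.5 CPM in PSCI and 29.01, 31.1 and 35.7 CPM in taVNS, beside 35.2, 26.8 and 24.98 CPM in control. These groups did not overlap, and the fall was 3.89-fold (log2 fold change -1.96 ± 0.18, adjusted p = 0.000757). Its partners C1qa (log2 fold change -1.19, adjusted p = 0.00575) and C1qc (-1.98, adjusted p = 0.00418) fell too, and the 3 calls held in every alternative.

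Fcgr2b, the inhibitory receptor for antibodies, was at 18.4, 40.6 and 29.2 CPM against 4.13, 7.62 and 5.74 CPM (log2 fold change -2.33 ± 0.34, adjusted p = 0.00696). Msr1, a scavenger receptor of macrophages, was at 7.91, 42.2 and 26.2 CPM against 0.911, 0.769 and 2.12 CPM (log2 fold change -4.32 ± 0.62, adjusted p = 0.00696), or -3.73 without PSCI 2, and its call was lost with limma-voom. Aif1, the general marker Iba1, moved less, at 23.7, 43.8 and 31.1 CPM against 15.6, 15.6 and 18.9 CPM (log2 fold change -0.98 ± 0.22, adjusted p = 0.0366). Its call was lost without each library except PSCI 1, with adjusted p of up to 0.141. P2ry12 (log2 fold change -0.21, adjusted p = 0.667) and Cx3cr1 (-0.45, adjusted p = 0.264) were not called, nor was the growth factor receptor Csf1r (-0.78, adjusted p = 0.0572). Tmem119 was the 1 gene of the list that rose, from 13.97, 14.9 and 11.8 CPM to 29.4, 19.9 and 28.97 CPM (log2 fold change 0.95 ± 0.19, adjusted p = 0.0252), a call lost without taVNS 1, taVNS 3, PSCI 3 or control 2 (adjusted p up to 0.104). The count of 14 falls was 6 without taVNS 1, 7 without taVNS 2 or PSCI 3, 8 without taVNS 3, 9 without PSCI 2 or control 2, 8 without both PSCI 2 and taVNS 3, and 22 without PSCI 1.

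Genes of phagocytic microglia, the state seen around damaged tissue, showed 11 falls and 1 rise among 17 tested. Cd14, a receptor for bacterial lipopolysaccharide, was at 12.5, 28.6 and 15.5 CPM in PSCI and 0.56, 1.26 and 0.956 CPM in taVNS (log2 fold change -4.33 ± 0.40, adjusted p = 0.000872). Ctsz, a lysosomal protease, was at 60.6, 126 and 86.2 CPM against 17.7, 18.7 and 23.9 CPM (log2 fold change -2.18 ± 0.28, adjusted p = 0.0045). Gpnmb, a membrane glycoprotein of such cells, was at 54.7, 335 and 217 CPM against 9.88, 18.9 and 22.7 CPM (log2 fold change -3.56 ± 0.59, adjusted p = 0.0121), a call lost without taVNS 1 or taVNS 2 (adjusted p up to 0.0645). Cd14 and Ctsz stayed called in every alternative. The lectin Lgals3 was at 16.02, 143 and 65.5 CPM against 1.33, 2.1 and 5.33 CPM (log2 fold change -4.67 ± 0.82, adjusted p = 0.0151), or -5.4 without taVNS 3 and -3.79 without PSCI 2. The secreted protein Spp1 was at 17.04, 496 and 267 CPM against 2.38, 9.86 and 15.7 CPM (log2 fold change -4.80 ± 1.07, adjusted p = 0.0346), or -3.92 without PSCI 2. Both share the pattern of a low PSCI 1 and a taVNS group whose highest value is taVNS 3. The call of Lgals3 was lost without taVNS 1 or taVNS 2 (adjusted p up to 0.0789), and that of Spp1 without each library except PSCI 1 (up to 0.131) and with limma on RPKM (adjusted p = 0.0766).

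Apoe, which carries lipids between glia and neurons and is on the phagocytic list as well, ran the other way. It was at 1479, 1596 and 1454 CPM in PSCI and 2823, 2361 and 2574 CPM in taVNS, beside 3107, 2672 and 2376 in control, a rise of 1.71-fold (log2 fold change 0.78 ± 0.13, adjusted p = 0.0135). The call was lost without taVNS 1, taVNS 3 or PSCI 3 (adjusted p up to 0.0692) and with limma on RPKM (adjusted p = 0.0557). The 11 falls of the phagocytic list were 2 without taVNS 1 or taVNS 2, 4 without taVNS 3, and 5 without PSCI 3, without control 2 or without both PSCI 2 and taVNS 3.

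Complement genes as a whole showed 11 falls and no rise among 24 tested, with a median of -0.959. Besides the C1q chains these include Serping1, the inhibitor of the first component, at 37.01, 48.3 and 34.3 CPM in PSCI and 3.85, 8.11 and 14.1 CPM in taVNS (log2 fold change -2.20 ± 0.40, adjusted p = 0.016), a call lost without taVNS 2 (adjusted p = 0.0732). The receptor C5ar1 fell by 4.6-fold (adjusted p = 0.0182), a call lost without taVNS 1, taVNS 2, taVNS 3 or PSCI 3 (adjusted p up to 0.0764). Complement counts were 4 without taVNS 1, 3 without taVNS 2, 7 without taVNS 3 and 5 without PSCI 3. Genes of antigen presentation all had negative fold changes, with a median of -0.891, but only RT1-DMa (-1.07, adjusted p = 0.00383) and RT1-DMb (-1.76, adjusted p = 0.00383), which load peptides onto class II molecules, were called among 19. That count was 12 without PSCI 1. Genes of the interferon response held 1 fall among 28 (3.57%, beside 4.91% of all genes), with a median of -0.0293. That fall was the guanylate-binding protein Gbp2 (log2 fold change -1.76 ± 0.31, adjusted p = 0.015), a call lost without taVNS 1 or taVNS 2 (adjusted p up to 0.0783). None of 5 lymphocyte markers tested was called by edgeR or limma-voom, and none of the 19 that DESeq2 kept. Of the 5, 2 had an unadjusted p under 0.05 in edgeR, and 1 was called lower without PSCI 1.

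Cytokine and chemokine genes fell in smaller numbers. Among 17 cytokines and their receptors, 6 fell and none rose (median -1.16), and among 10 chemokines and receptors 3 fell and none rose. Csf2rb, the common receptor chain for GM-CSF, interleukin-3 and interleukin-5, was at 26.99, 62.6 and 27.02 CPM in PSCI and 1.33, 3.22 and 3.48 CPM in taVNS (log2 fold change -3.85 ± 0.44, adjusted p = 0.00301), with no overlap, and held in every alternative. Tnf, tumour necrosis factor, was low throughout, at 0.818, 0.701 and 0.914 CPM against 0.21, 0.14 and 0.205 CPM (log2 fold change -2.08 ± 0.43, adjusted p = 0.0258), and lost its call with DESeq2 and without taVNS 1, taVNS 2, taVNS 3, PSCI 3, control 2 or control 3 (adjusted p up to 0.116). Ccl2, which attracts monocytes, had 467 counts in the 3 PSCI libraries and 1 in the 3 taVNS libraries, a ratio of 442 with a 95% counting interval from 78.9 to 17500. Its 3 PSCI values of 0.886, 20.6 and 8.55 CPM were far apart, and its adjusted p was 0.0148, or up to 0.0789 without taVNS 1, taVNS 2 or taVNS 3. Il18, an interleukin released by inflammasomes, is among the genes whose counts and RPKM disagree (log2 fold change -2.18 in counts and -1.76 in RPKM). The 6 cytokine falls were 2 without taVNS 1 or taVNS 2, 3 without taVNS 3, PSCI 3, control 2 or both PSCI 2 and taVNS 3, and 11 without PSCI 1. The 3 chemokine falls were 0 without taVNS 1, taVNS 2, taVNS 3 or both PSCI 2 and taVNS 3, 1 without PSCI 2 or PSCI 3, and 9 without PSCI 1.

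Many genes of Toll-like receptor signalling to NF-kB, of autophagy and of apoptosis are marked by the rules on counts against RPKM, with 9 of 28, 10 of 32 and 5 of 26 marked. In the Toll-like receptor and NF-kB list 11 of 28 genes fell, but 7 of them, Traf6, Myd88, Ikbkb, Nfkb1, Rela, Nfkbia and Tlr4, are marked by at least 1 rule. Without the 9 marked members, 4 of 19 fell, with a median of -0.656. These 4 were Cd14, Tlr1, Tlr7 and Tlr8. Tlr7, a receptor for viral RNA, was at 11.6, 23.3 and 15.7 CPM against 6.52, 7.34 and 6.97 CPM (log2 fold change -1.28 ± 0.24, adjusted p = 0.0168), a call lost without taVNS 1, taVNS 2 or taVNS 3 (adjusted p up to 0.0822). The count of 11 was 17 without PSCI 1. Traf6, an adaptor below these receptors, had counts of 1971, 1933 and 1955 in PSCI and 366, 430 and 397 in taVNS. Its RPKM of 11.4, 15.1 and 10.1 against 3.6, 4.12 and 3.85 kept the direction with a smaller difference of -1.62.

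Among 26 apoptosis genes 9 fell and none rose. Bax, Bad and Casp9 are among the marked members, and Bcl2 reverses in RPKM. Unmarked falls with the same sign in RPKM were Casp8, the initiator caspase of death receptors, at 6.47, 9.69 and 9.53 CPM against 1.68, 2.03 and 1.98 CPM (log2 fold change -2.17 ± 0.27, adjusted p = 0.00423), the death receptor Fas (log2 fold change -2.18 ± 0.43, adjusted p = 0.0232), Bak1, which opens the mitochondrial membrane (log2 fold change -0.77 ± 0.18, adjusted p = 0.0436), and the survival factor Mcl1 (log2 fold change -0.71 ± 0.09, adjusted p = 0.00482). Casp8 and Mcl1 stayed called in every alternative. Fas lost its call without taVNS 1, taVNS 2, PSCI 3 or control 2 (adjusted p up to 0.106), and Bak1 without taVNS 1, taVNS 2, taVNS 3, PSCI 2, PSCI 3, control 1 or control 2 (up to 0.163) and with limma on RPKM (adjusted p = 0.0504). Among 32 autophagy genes 8 fell and 1 rose, and all 9 are marked, so that the 22 unmarked members hold no call by edgeR (median -0.016). Limma on log2(RPKM + 0.1) called 6 falls and 1 rise among the 32, and over all genes 23 of the 24 called genes of the first rule, so for most of these genes the call was made in both units, with fold changes of different size. Over all 32, 12 genes had an unadjusted p under 0.05 in edgeR. The inflammasome list showed 5 falls among 12, of which Nlrp3 and Il18 are marked. Pycard, the adaptor ASC, was at 4.63, 9.81 and 7.96 CPM against 1.96, 1.96 and 2.25 CPM (log2 fold change -1.86 ± 0.34, adjusted p = 0.0164), and Casp1, the protease that matures interleukin-1, at 4.77, 10.2 and 6.53 CPM against 2.66, 2.03 and 2.32 CPM (log2 fold change -1.61 ± 0.30, adjusted p = 0.0183). The call of Pycard was lost without taVNS 1, taVNS 2, taVNS 3 or PSCI 3 (adjusted p up to 0.0853), and that of Casp1 without taVNS 1, taVNS 2, taVNS 3 or PSCI 3 (up to 0.082). The 5 inflammasome falls were 2 without taVNS 1, taVNS 2, taVNS 3 or PSCI 3, 1 at a time, and 2 without both PSCI 2 and taVNS 3.

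The list of glucocorticoid-responsive genes, which holds the metallothioneins, showed 5 falls and no rise among 18 tested, or 3 falls without taVNS 1 or taVNS 2. Mt1, a metal-binding protein induced by zinc, glucocorticoids and injury, was at 54.3, 41.2 and 29.4 CPM in PSCI and 3.57, 6.43 and 4.44 CPM in taVNS (log2 fold change -3.11 ± 0.33, adjusted p = 0.00189), and Mt2A at 194, 151 and 89.9 CPM against 14.8, 20.4 and 10.2 CPM (log2 fold change -3.26 ± 0.35, adjusted p = 0.00208). Both were highest in PSCI 1, while Gfap and C1qb were highest in PSCI 2. Tagln, an actin-binding protein of smooth muscle and pericytes, was at 144, 117 and 99.7 CPM against 10.4, 7.97 and 10.5 CPM (log2 fold change -3.64 ± 0.25, adjusted p = 0.000115), also highest in PSCI 1. The myosin light chain Myl9 was at 26.5, 32.1 and 29.5 CPM against 6.45, 5.46 and 8.13 CPM (log2 fold change -2.14 ± 0.18, adjusted p = 0.000434). These 4 calls held in every alternative. In the list of endothelium and pericytes 2 of 27 genes fell (7.41%, beside 4.91% of all genes). They were Tagln and the adhesion molecule Icam1 (log2 fold change -1.37 ± 0.31, adjusted p = 0.0368). Icam1 lost its call without taVNS 1, taVNS 2, taVNS 3, PSCI 2, PSCI 3, control 1 or control 2 (adjusted p up to 0.139) and with limma on RPKM (adjusted p = 0.0871). Cldn5, the tight junction protein of brain vessels, was not called (log2 fold change -0.15 ± 0.20, adjusted p = 0.725).

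Matrix genes showed 8 falls and no rise among 24 tested. Timp1, an inhibitor of matrix proteases, was at 19.6, 129 and 46.9 CPM in PSCI and 1.61, 1.96 and 7.45 CPM in taVNS (log2 fold change -4.14 ± 0.76, adjusted p = 0.0168), or -5.15 without taVNS 3 and -3.17 without PSCI 2. Mmp2, a gelatinase, was at 15.5, 23.4 and 23.04 CPM against 6.52, 8.67 and 8.81 CPM (log2 fold change -1.37 ± 0.22, adjusted p = 0.0105). The call of Timp1 was lost without taVNS 1 or taVNS 2 (adjusted p up to 0.0834) and that of Mmp2 without taVNS 1 (adjusted p = 0.0583). The 8 falls were 0 without taVNS 1, 1 without taVNS 2, 3 without taVNS 3, 4 without PSCI 3, control 2 or control 3, 5 without PSCI 2 and 13 without PSCI 1. Without both PSCI 2 and taVNS 3 the count was 5. None of the 25 meningeal genes was called by edgeR with all 9 libraries, where 5 had an unadjusted p under 0.05. DESeq2, which kept 26 such genes, called 2, limma-voom 0, and edgeR without taVNS 3 called 3, each lower in taVNS. Without both PSCI 2 and taVNS 3, edgeR called 1 higher and 1 lower. The list median was -1.52 without taVNS 3 and 0.657 without PSCI 2, so its sign turned with these libraries.

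Few neuronal and synaptic genes were called, as was so for all genes tested. The called share was 3.57% for synaptic vesicle, 3.33% for glutamate receptor and scaffold and 8.33% for interneuron genes. Over all genes it was 5.75%, with 0.842% higher and 4.91% lower. Of 28 synaptic vesicle genes 1 rose, and the median log2 fold change was 0.234, with 2 of 28 values below 0. DESeq2 called 4 of these 28 higher and limma-voom 0, and edgeR called 0 without any 1 library other than PSCI 1, whose omission gave 2. Of 30 glutamate receptor and scaffold genes 1 rose, with a median of 0.201. That count was 0 without taVNS 1, taVNS 2, taVNS 3, PSCI 3 or control 2, and 2 without PSCI 1 or PSCI 2. None of 15 GABA-A receptor subunits, 22 pyramidal neuron genes and 14 dentate granule cell genes was called by edgeR, where 1, 2 and 3 had an unadjusted p under 0.05. Their medians were 0.103, 0.0964 and 0.539. DESeq2 called 1 GABA-A subunit and none of the other genes, and limma-voom called 0 of all. Without PSCI 1, edgeR called 2 GABA-A subunits and 3 granule cell genes higher, and without PSCI 2 it called 1 of each. Of 24 interneuron genes 1 rose, the potassium channel Kcnc2 (log2 fold change 0.60 ± 0.11, adjusted p = 0.0157), and 1 fell, the neuropeptide Npy (log2 fold change -1.81 ± 0.43, adjusted p = 0.0417). DESeq2 called 7 interneuron genes higher and 1 lower, edgeR with DESeq2's size factors called 3 higher, and edgeR without PSCI 1 or PSCI 2 called 3 higher, 1 library left out at a time. The call of Kcnc2 was lost without taVNS 1, taVNS 2, taVNS 3 or PSCI 3 (adjusted p up to 0.0783), and that of Npy without taVNS 1, taVNS 2, taVNS 3, PSCI 3, control 1, control 2 or control 3 (up to 0.138). Cplx1, a complexin that regulates vesicle fusion, was at 290.2, 295 and 275 CPM in PSCI and 379.6, 349 and 442 CPM in taVNS (log2 fold change 0.44 ± 0.10, adjusted p = 0.0396), and Grik2, a kainate receptor subunit, at 31.4, 30.6 and 27.5 CPM against 42.1, 47 and 41.4 CPM (log2 fold change 0.54 ± 0.11, adjusted p = 0.0251). Cplx1 lost its call without each library except PSCI 1 (adjusted p up to 0.134) and with limma on RPKM (adjusted p = 0.086), and Grik2 without taVNS 1, taVNS 2, taVNS 3, PSCI 3 or control 2 (up to 0.0942). Snap25 was not called (log2 fold change 0.34 ± 0.15, adjusted p = 0.23), nor was the AMPA receptor subunit Gria1 (log2 fold change 0.28 ± 0.26, adjusted p = 0.603). Calb1, a calcium buffer of granule cells, was at 62.4, 117 and 50.3 CPM against 146, 98.1 and 108 CPM (log2 fold change 0.62 ± 0.31, adjusted p = 0.294).

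Genes of the transmitters that vagal input is known to engage held few calls. The called share was 0% for acetylcholine and 4.35% for noradrenaline and serotonin genes, beside 5.75% of all genes. None of 15 genes of acetylcholine signalling was called by edgeR or limma-voom, and DESeq2 called 1 of the 19 it kept. Of the 15, 4 had an unadjusted p under 0.05 in edgeR, and the median was 0.274. Chrna7 was at 8.72, 11.2 and 7.25 CPM in PSCI, 10.7, 13.8 and 16.3 CPM in taVNS and 8.07, 13.7 and 11.2 CPM in control (log2 fold change 0.59 ± 0.25, adjusted p = 0.211), and PSCI and taVNS overlapped. Of 23 genes of noradrenaline and serotonin signalling 1 fell, the monoamine oxidase Maob of astrocytes (log2 fold change -0.53 ± 0.11, adjusted p = 0.0319), a call lost without taVNS 1, taVNS 2, taVNS 3, PSCI 3, control 2 or control 3 (adjusted p up to 0.142). Bdnf, the neurotrophin often measured after vagus nerve stimulation, was at 40.3, 6.44 and 72.2 CPM in PSCI and 37.4, 38.9 and 36.5 CPM in taVNS (log2 fold change -0.08 ± 0.61, adjusted p = 0.961), and its 3 PSCI values spanned more than 10-fold. The growth factor list held 1 fall among 26, Cntf, a cytokine of astrocytes that supports neurons (log2 fold change -1.27 ± 0.26, adjusted p = 0.0256), lost without taVNS 1, taVNS 2, taVNS 3 or PSCI 2 (adjusted p up to 0.0839).

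Beside 5.75% of all genes tested, 3.33% of immediate early and 15.8% of immature neuron genes were called. For myelin and oxidative phosphorylation genes the share was 4.76% and 0%. Immediate early genes, which report recent neuronal firing, held 1 fall among 30, the small Maf factor Maff (log2 fold change -2.83 ± 0.31, adjusted p = 0.00247). Fos was at 4.02, 19.2 and 10.6 CPM in PSCI, 4.13, 4.2 and 1.3 CPM in taVNS and 18.4, 11.1 and 12.5 CPM in control (log2 fold change -1.81 ± 0.58, adjusted p = 0.108). Arc was at 37.8, 9.88 and 58.9 CPM against 34.4, 70.5 and 38.3 CPM (log2 fold change 0.43 ± 0.54, adjusted p = 0.707), and the 6 libraries lay below the 135, 110.3 and 72.4 CPM of control. Dcx, a marker of newborn neurons, was not called (log2 fold change 0.48 ± 0.22, adjusted p = 0.259). Of 19 genes of immature neurons 1 rose, Hes5, and 2 fell, the tubulin Tubb2b (log2 fold change -1.47 ± 0.28, adjusted p = 0.021), lost without taVNS 1, taVNS 2, taVNS 3 or PSCI 3 (adjusted p up to 0.0967), and the axon guidance factor Draxin (log2 fold change -1.20 ± 0.22, adjusted p = 0.0166), lost without taVNS 1, taVNS 2 or PSCI 3 (up to 0.0831) and with limma on RPKM (adjusted p = 0.0557). Myelin genes held 1 fall among 21, the transcription factor Olig1 (log2 fold change -0.49 ± 0.12, adjusted p = 0.0468), lost without taVNS 1, taVNS 2, taVNS 3, PSCI 3, control 1, control 2 or control 3 (adjusted p up to 0.179). Mbp, myelin basic protein, was not called (log2 fold change 0.34 ± 0.41, adjusted p = 0.695). Transferrin (Tf), which oligodendrocytes make, was not among the 21 and is given below as a called fall. None of 26 genes of oxidative phosphorylation was called by edgeR or limma-voom and 4 by DESeq2, 6 had an unadjusted p under 0.05 in edgeR, and the median was 0.127.

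Rises were fewer, and a smaller share of them was at least 2-fold. Among the 12 largest by the naming rule 4 encode proteins of red blood cells, the haem enzyme Alas2 and the globins Hbb-bs, Hbb and Hba-a1, which are near-identical copies within each globin family, so that reads may be split between them. Hba-a1, an alpha globin, was at 15.4, 19.4 and 42.5 CPM in PSCI, 161, 66.5 and 83.5 CPM in taVNS and 46.6, 49.4 and 44.1 CPM in control (log2 fold change 2.01 ± 0.41, adjusted p = 0.0262). All 7 red blood cell genes tested had positive fold changes and 4 rose, and the count fell to 0 without taVNS 1, to 1 without control 2 and to 2 without taVNS 2, taVNS 3, PSCI 2 or control 1, 1 at a time. Without both PSCI 2 and taVNS 3 it was 1. With the 6 libraries of the 2 groups alone, or with the replicate number as a block, it was 0. Hba-a1 lost its call without taVNS 1, taVNS 3, PSCI 2 or control 2, with adjusted p of up to 0.0942. Alas2 lost its call without each library except PSCI 2 and PSCI 3. Hbb lost its call without each library except taVNS 3, PSCI 1 and PSCI 3, and Hbb-bs without taVNS 1 or taVNS 2.

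Outside blood, Krt2, a keratin, rose from 3.88, 3.38 and 4.96 CPM to 17.9, 10.5 and 18.6 CPM (log2 fold change 1.94 ± 0.24, adjusted p = 0.00448), and Gzmm, a granzyme gene, from 1.91, 1.72 and 1.57 CPM to 6.38, 5.25 and 6.35 CPM (log2 fold change 1.79 ± 0.20, adjusted p = 0.00267). Controls were at 15.1, 12.7 and 14.1 and 4.55, 5.17 and 5.8 CPM, and both calls held in every alternative. Col11a2, a fibrillar collagen, rose from 119, 53.7 and 99.3 CPM to 308, 256 and 259 CPM (log2 fold change 1.59 ± 0.26, adjusted p = 0.0105), lost without taVNS 1 (adjusted p = 0.0621). Piezo2, a channel opened by touch, rose from 10.8, 3.95 and 5.22 CPM to 23.9, 19.3 and 18.6 CPM (log2 fold change 1.63 ± 0.33, adjusted p = 0.0251), lost without taVNS 1, taVNS 2, taVNS 3, PSCI 3 or control 2 (adjusted p up to 0.11).

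The most abundant genes that changed, by mean CPM, which is not scaled for gene length, were Gfap, Actb, Glul, Tmsb4x and Tf among the falls and Apoe, Camkv, Cntn1, Thra and Glud1 among the rises. Tf, transferrin, which carries iron and is made by oligodendrocytes, was at 1330, 1278 and 2296 CPM in PSCI and 533, 685 and 377 CPM in taVNS (log2 fold change -1.62 ± 0.30, adjusted p = 0.0172). Actb, a cytoskeletal actin often used as a reference gene, was at 2351, 2619 and 2679 CPM against 1628, 1759 and 1533 CPM (log2 fold change -0.64 ± 0.13, adjusted p = 0.0256). Camkv, a synaptic pseudokinase, rose from 495, 447 and 388 CPM to 632, 617 and 683 CPM (log2 fold change 0.54 ± 0.11, adjusted p = 0.0238). Tf lost its call without taVNS 1 or taVNS 3 (adjusted p up to 0.092), Actb without taVNS 1, taVNS 2, taVNS 3, PSCI 3 or control 3 (up to 0.128) and Camkv without taVNS 1, taVNS 2, taVNS 3 or PSCI 3 (up to 0.0972).

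Some genes that fell were lower in taVNS than in control as well. Sgk1, a kinase induced by glucocorticoids, was at 185, 95.1 and 144 CPM in PSCI, 74.8, 61.1 and 71.9 CPM in taVNS and 121, 141 and 146 CPM in control (log2 fold change -1.03 ± 0.21, adjusted p = 0.0258). Its taVNS libraries lay below both other groups. Cdkn1a, the cell cycle inhibitor p21, showed the same order, with 3.01, 3.5 and 4.03 CPM in taVNS against 5.8, 5.31 and 7.49 CPM in control and 7.09, 10.1 and 12.99 CPM in PSCI (log2 fold change -1.51 ± 0.26, adjusted p = 0.0135). The call of Sgk1 was lost without taVNS 1, taVNS 2, taVNS 3, PSCI 3, control 2 or control 3 (adjusted p up to 0.108) and that of Cdkn1a without taVNS 1 or taVNS 2 (up to 0.0732). No test of taVNS against control was made here.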

How the data were processed

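RNA from 9 rat hippocampi (50 mg of tissue each, RIN of at least 7) was selected with oligo-dT and sequenced. The authors deposited, for each library, estimated counts of reads per gene (expected counts) and RPKM values, made with HISAT2 2.0.4 and RSEM 1.2.8 on mRatBN7.2, per the submitters' processing notes. The kit marks strand with dUTP per the labels' protocols. The annotation, and whether counting used strand, are not given in the sources used here, and near-identical copies (globins, Actb, Rps2) may share reads.

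Estimated counts were rounded and tested with edgeR 4.0.16 (filterByExpr, TMM scaling, quasi-likelihood F test, R 4.3.3) on 9 libraries in 3 groups with 6 residual degrees of freedom. The contrast was taVNS minus PSCI. P-values were adjusted by Benjamini-Hochberg over all genes kept, and calls made under 0.05. Of 18733 genes, 14840 were kept. Standard errors are the fold change divided by the square root of F. RPKM were tested with limma 3.58.1 as log2(RPKM + 0.1), a scale that understates changes of low genes, over the same genes. The scripts were tested on simulated data.

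For the first rule, the ratio of counts to RPKM was taken for genes with at least 10 counts and an RPKM of 0.5 in each library. For the added rule it was taken for the 14202 genes with at least 5 counts and an RPKM of 0.1 in each library. Both were centred on each library's median. The added rule marks a gene when a PSCI library lies over 0.2 (log2) from the median of the other 6 libraries and at least 5 of those lie within 0.15 of it.

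Named genes were the 12 largest rises and falls among separated calls with a mean of at least 1 CPM, the 8 most abundant of each, up to 5 called members per list by p, well-known markers and the 8 largest disagreements of counts and RPKM. Further list members were named after their values were seen. Members and the 41 lists were chosen with earlier results of these data known. Promoters are RefSeq's (GRCr8), matched by gene identifier for 12016 of 14840 genes. Alternatives were other scalings, filters and pseudocounts, DESeq2 1.42.0, limma-voom, the replicate block, the 6 libraries alone, leaving out marked genes, and leaving out libraries. Leaving out genes marked by either rule, and the added rule itself, were chosen after seeing the data.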

Additional observations from a re-analysis of the deposited data

How the results depend on the processing

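The main count of 854 called genes (125 higher, 729 lower) was 835 with DESeq2's size factors, 824 with upper-quartile scaling, 844 without a filter and 848 with at least 1 CPM in 3 libraries. Without the genes whose counts and RPKM disagree it was 819, or 800 with both rules. It moved by over 1.5 times with DESeq2 (1560, 420 higher and 1140 lower), with limma-voom (480, 77 and 403), with the 6 libraries alone (250, 25 and 225), and without both PSCI 2 and taVNS 3 (361, 49 and 312). Limma on log2(RPKM + 1) called 655 genes (82 higher, 573 lower). Leaving out 1 library at a time gave 172 to 1707 calls, 14 to 304 higher and 158 to 1403 lower, each lowest without taVNS 1 and highest without PSCI 1. The 63 genes whose ratio of counts to RPKM moved in PSCI were 156 at a limit of 0.15 and 19 at 0.5.

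The replicate number shared across groups was checked for pairing. Deviations of same-numbered PSCI and taVNS libraries correlated across genes at 0.0362, -0.468 and -0.195, so the numbers were not taken as pairs. With the replicate block the count was 518 (61 higher, 457 lower), of which 479 were among the 854, and 51 of the 205 called named genes lost the call. With 3 libraries a group, calls of low genes such as Tnf are limited by counts near the 3 that a count of 0 allows.

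Of the 205 called named genes, 76 kept the call in every alternative, 28 lost it with limma on log2(RPKM + 0.1), and 38 moved by over 1.5 times without 1 library, 29 of them without PSCI 2. Signs reversed for Gabarapl2 (0.0539 and 0.0534 in RPKM with 0.1 and 1 added) and Bcl2 (2.08 and 0.952). Among genes that were not called, Bdnf turned positive (0.512 with limma-voom, 0.46 and 0.337 in RPKM, 0.264 with the replicate block). Without 1 library at a time Bdnf ranged from -0.579 (without PSCI 2) to 0.689 (without PSCI 3), Arc from -0.0175 to 1.01, and Mbp from -0.0308 to 0.574, the latter 2 lowest without PSCI 2. The causes were not tested.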

Other observations

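Gene families were grouped by symbol after the values had been seen, and are given as a description with no test. Of 11 S100 genes, which encode small calcium-binding proteins, 7 were lower in taVNS and none higher (median log2 fold change -0.735, beside -0.00151 over all genes and 4.91% called lower). S100a4 was at 72.1, 59.1 and 103 CPM in PSCI and 2.24, 5.59 and 3.28 CPM in taVNS (log2 fold change -4.39 ± 0.40, adjusted p = 0.000757). Of 5 calponins and transgelins, which bind actin, 4 fell, among them Cnn2 (log2 fold change -2.38 ± 0.27, adjusted p = 0.00283) and Cnn3 (log2 fold change -1.23 ± 0.15, adjusted p = 0.00397). Of 6 caveolins and cavins, which shape pits in the cell membrane, 3 fell, among them Cav2 (log2 fold change -1.47 ± 0.16, adjusted p = 0.00267) and Cavin3 (log2 fold change -1.72 ± 0.20, adjusted p = 0.00283). Of 12 cathepsins, the proteases of lysosomes, 8 fell, and 11 had a negative fold change. Of 8 annexins 3 fell, Anxa3 among them (log2 fold change -1.35 ± 0.18, adjusted p = 0.00488), and of 26 integrins 7 fell. Leaving out 1 library at a time gave 1 to 7 falls for S100 genes, 3 to 4 for calponins and transgelins, 2 to 3 for caveolins and cavins, 1 to 7 for cathepsins, 1 to 4 for annexins and 1 to 11 for integrins. Collagens held 4 rises (Col11a2, Col24a1, Col25a1 and Col27a1) and 4 falls (Col11a1, Col13a1, Col15a1 and Col4a1) among 40. The collagen falls were 0 without taVNS 1, taVNS 2, taVNS 3, PSCI 3 or control 2 and 6 without PSCI 1, and the rises ranged from 1 (without taVNS 1) to 4. Col25a1, a membrane collagen of neurons, rose from 94.4, 91.6 and 102 CPM to 216, 199 and 189.5 CPM (log2 fold change 1.07 ± 0.10, adjusted p = 0.00133), and stayed called in every alternative.

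Other rises that stayed called in every alternative were Selplg, the selectin ligand of microglia and leukocytes, at 32.99, 25.9 and 33.6 CPM in PSCI and 62.9, 62.7 and 67.97 CPM in taVNS (log2 fold change 1.06 ± 0.12, adjusted p = 0.00244), and Mfge8, which bridges phagocytes to dying cells, at 70.3, 88.4 and 66.1 CPM against 141, 116 and 139.8 CPM (log2 fold change 0.82 ± 0.13, adjusted p = 0.00921). In both genes the 3 taVNS values lay above the 3 PSCI values. Cytosolic ribosomal protein genes had small negative fold changes in 82 of 94 (median -0.305), of which 3 were called. That count was 0 without taVNS 1, taVNS 2, taVNS 3 or PSCI 3, 1 without PSCI 2, control 2 or control 3, and 28 without PSCI 1.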
